A study of Homo sapiens with 18 samples.

Results

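The regulatory domain of the oncogene MYC was examined in ChIP-seq maps of 3 histone marks, in which DNA bound to a marked histone is pulled down and sequenced, from human lung adenocarcinoma lines. Its members are all deposited peak summits that fall in a window of 1400 kb on chromosome 8, from 128000 to 129400 kb in hg19, whatever their strength. The window holds MYC, with a start near 128748 kb, and the long non-coding RNA gene PVT1, from 128806 to 129113 kb. Of the 947675 summits in the 13 deposited lists, 953 lay there. The groups, taken from the sample titles, were H2087-LCC-TGFb (TGFb), H2087-LCC-SO1 (SO1), H2030, and H2087-LCC (LCC). The labels give a treatment of H2087-LCC with TGF-β1, written as 100 nM for 4 days, but attach this text to every sample, so that only the titles set TGFb apart from LCC, and the dose was not checked against another source. TGFb, SO1 and LCC carry the H2087 name and share a medium with insulin, hydrocortisone, transferrin and epidermal growth factor. H2030 is a separate line grown without these additions, so that line and medium cannot be told apart. The labels do not say how SO1 was obtained. H3K27ac was profiled in 2 LCC libraries numbered as biological replicates, and every other combination of group and mark has 1 library. No test between groups was run, and experimental error can be read only from how the LCC replicates differ for H3K27ac.

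MYC encodes a transcription factor that drives cell growth and division, and it is often overexpressed in lung cancer. It stands in a region with few other protein-coding genes, and is controlled by enhancers that lie far away on both sides, many of them inside PVT1. The PVT1 promoter is known to compete with that of MYC for these enhancers, and amplified enhancers beyond PVT1 have been described in lung adenocarcinoma. TGF-β is known to repress MYC in epithelial cells. H3K4me3 is typical of promoters and H3K4me1 of enhancers and promoter flanks, while H3K27ac is found on both kinds of element when they are active. In RefSeq's GRCh38 table the nearest protein-coding genes are POU5F1B on the MYC side and GSDMC beyond PVT1. The non-coding genes CCAT1, CASC8, CASC19, CCAT2 and CASC11 lie before MYC, and MIR1204 to MIR1208 lie after its start. These genes, and markers of lung epithelium, are not placed here, since no hg19 annotation was used, and the cell type of the labels was not checked.

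Each summit carries the authors' score, a −log10 p or q value, which ranks peaks within their own list. It grows with sequencing depth, which is unknown, so a score in 1 list is not compared in size with a score in another. A wide peak is represented by a single summit, so a missing summit does not show that the mark is missing.

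Every library had more summits in the window than in the median stretch of that length, for all 3 marks. H3K27ac had 87 summits in TGFb, 65 in SO1, 120 in H2030, and 57 and 74 in LCC replicates 1 and 2. Tiling the genome in 2060 pieces of the same length gave medians of 28 (TGFb), 24 (SO1), 19 (H2030), 21 and 26 summits for the same libraries. H2030 stood out: only 6 of the 2060 tiles held more of its H3K27ac summits, against 85 tiles for TGFb, 140 for SO1, and 183 and 154 for the LCC replicates. H3K4me1 had 115 summits in TGFb, 98 in SO1, 117 in H2030 and 119 in LCC, with tile medians of 68, 58, 55 and 66. In the same order 407, 451, 329 and 361 tiles held more, so the window was less exceptional for this mark. H3K4me3 had 28, 30 and 18 summits in TGFb, SO1 and H2030, and 25 in LCC, with tile medians of 11, 11, 10 and 10. In that order 248, 196, 406 and 249 tiles held more. Only 6, 8, 2 and 4 of these H3K4me3 summits reached the median score of their list.

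Many of the additional H2030 summits had low scores. With scores of at least 10, H3K27ac summits numbered 46 in TGFb, 47 in SO1, 50 in H2030, and 43 in each LCC replicate. A fixed score does not mean the same in lists of different depth. Relative to the tile median at this threshold, H2030 still had the highest ratio, 4.17, against 2.56 in TGFb, 2.76 in SO1, and 3.91 and 3.07 in the LCC replicates. At that threshold 212 tiles held more summits than the window in TGFb, 152 in SO1, 50 in H2030, and 68 and 159 in the LCC replicates. The median score in the window was below that of the whole list in TGFb (11.1 against 20.9) and H2030 (7.93 against 15.5). It was above it in SO1 (48.7 against 30.1) and in the LCC replicates (39.1 against 12.6, and 15.6 against 13.5). The 1400 kb on either side of the window held 18 H2030 H3K27ac summits each, beside 22 and 10 in LCC replicate 1 and 23 and 11 in replicate 2. Input libraries were not analysed here, so DNA copy number and the mark cannot be told apart in any comparison of lines.

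**Figure D1:**
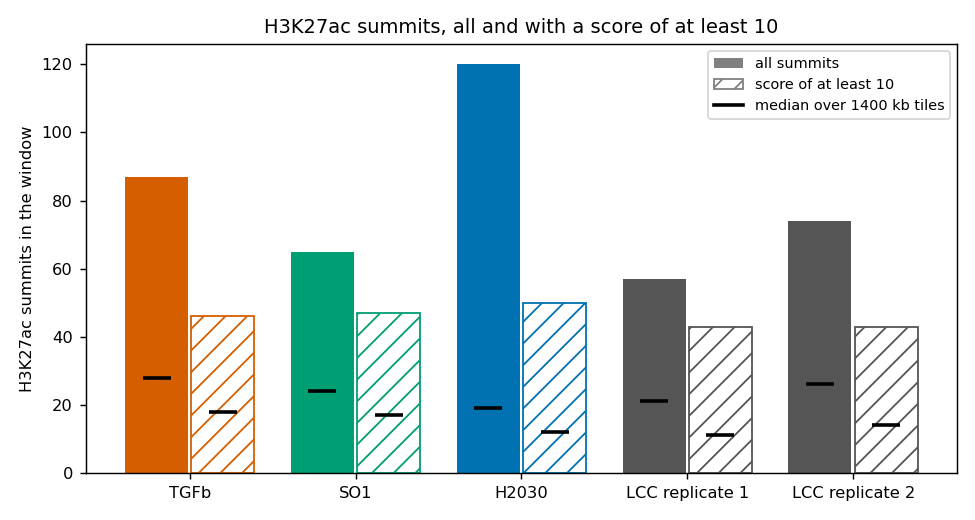
Number of H3K27ac summits in the window for each library (y axis), for all deposited summits (filled bars) and for those with a score of at least 10 (hatched bars), with no error bars as each bar is 1 library. Black lines give the median over 1400 kb tiles of the genome. H2030 has the most summits, 120, but 50 with a score of at least 10, close to the 43 to 47 of the other libraries.

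Most H3K27ac lay in PVT1. The stretch from 5 kb before to 5 kb after that gene held 60 of the 87 summits in TGFb, 41 of 65 in SO1, 87 of 120 in H2030, and 33 of 57 and 50 of 74 in the LCC replicates. That is 18.9 summits per 100 kb in TGFb, 12.9 in SO1, 27.4 in H2030, and 10.4 and 15.8 in LCC. At scores of at least 10 the stretch held 27 summits in TGFb, 28 in SO1, 34 in H2030, and 27 and 28 in LCC, a narrower range than that of all summits. The 743 kb before MYC held 8, 9 and 16 H3K27ac summits in TGFb, SO1 and H2030, against 4 in each LCC replicate. H3K4me1 was spread more evenly. PVT1 held 38.3% of its window summits in TGFb, 34.7% in SO1, 34.2% in H2030 and 36.1% in LCC. H3K4me3 followed H3K27ac, with 19 of 28 summits in PVT1 in TGFb, 21 of 30 in SO1, 12 of 18 in H2030 and 16 of 25 in LCC.

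**Figure D2:**
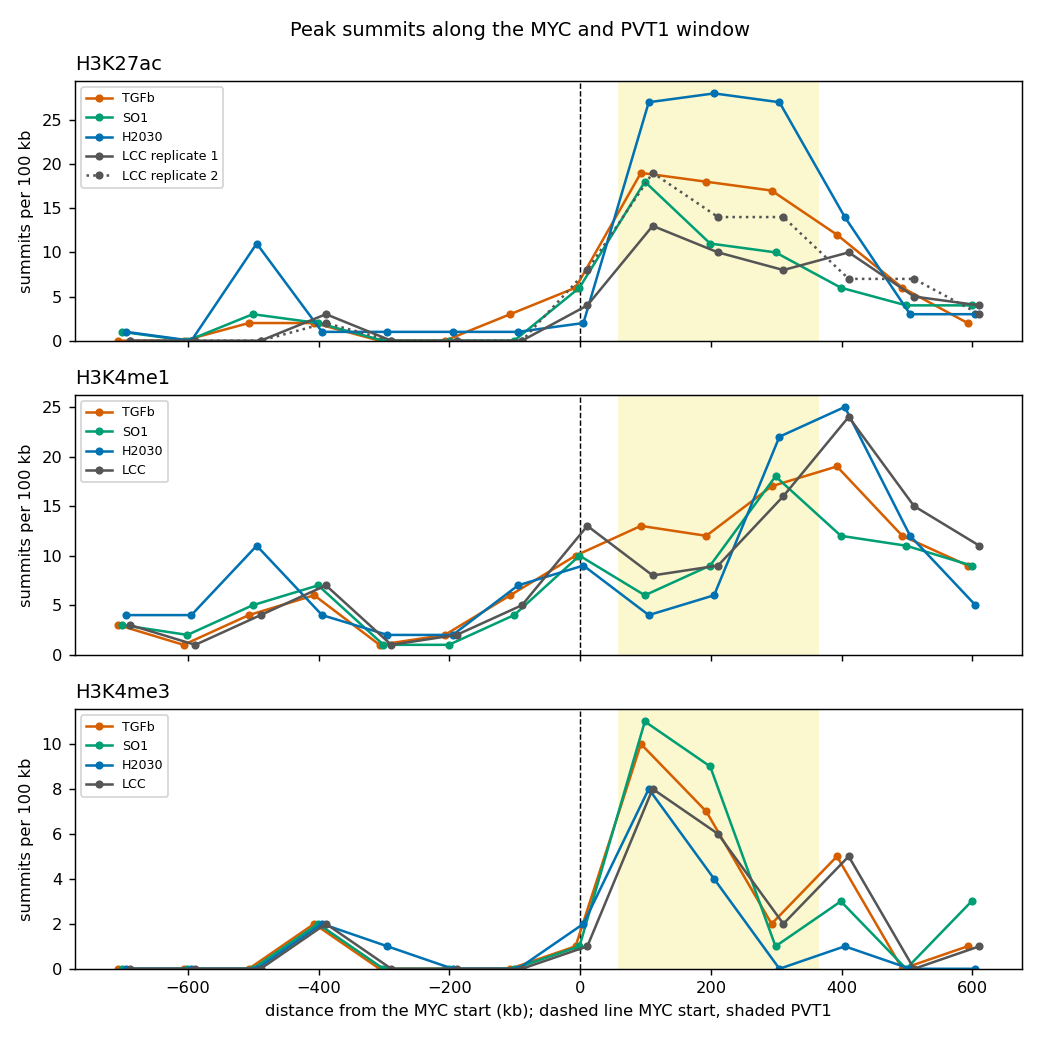
Summits per 100 kb (y axis) against the distance from the MYC start in kb (x axis) for the 3 marks, 1 line per library, with points of the groups moved slightly sideways so that they do not hide each other. H3K27ac reached 27, 28 and 27 summits per 100 kb in H2030 across PVT1, and a second H2030 rise to 11 summits lies about 500 kb before MYC, where the LCC replicates have 0.

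All 3 marks were found at the MYC start in every group. H3K4me3, the promoter mark, had 1 summit within 5 kb in each list, with a score of 286 in TGFb, 333 in SO1, 530 in H2030 and 236 in LCC. These ranked 12408 of 28889, 12273 of 28666, 3695 of 25691 and 12291 of 26089 in their lists. The MYC promoter was thus in the middle of the H3K4me3 lists of the H2087 cells and within the first 14.4% of the H2030 list. H3K27ac scored 162 in TGFb, 297 in SO1 and 305 in H2030. In LCC it scored 109 with a second summit of 4.25 in replicate 1, and 243 in replicate 2. It ranked 10938 of 68118 in TGFb, 3074 of 56324 in SO1 and 2349 of 52534 in H2030. The stronger LCC summits ranked 2419 of 50663 in replicate 1 and 1131 of 62986 in replicate 2. The position of the H3K27ac summit shifted. It lay 2350 bp after 128748 kb in TGFb, 1314 bp after it in SO1 and 671 bp before it in H2030. The LCC replicates had it 114 bp before and 2358 bp after that point, so the replicates lay farther apart here than TGFb and SO1. H3K4me1 flanked the start, with its strongest summit 1251 bp before it in TGFb (score 82.8), 1830 bp before it in SO1 (66.6), 2104 bp before it in H2030 (61.1) and 1287 bp before it in LCC (51.0).

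PVT1 is a long non-coding RNA whose gene is often gained together with MYC. At its start H3K4me3 scored 239 in TGFb, 323 in SO1, 481 in H2030 and 252 in LCC. H3K4me1 scored 57.8 in TGFb, 108 in SO1, 33.4 in H2030 and 85.9 in LCC. H3K27ac scored 181 in TGFb, 287 in SO1, and 195 and 293 in the LCC replicates. These summits ranked 9690 of 68118 in TGFb and 3359 of 56324 in SO1. In the LCC replicates they ranked 393 of 50663 and 535 of 62986. H2030 had a single weak H3K27ac summit within 5 kb, with a score of 3.18 and a rank of 49420 of 52534. Its nearest summit at or above the list median lay 16.3 kb away, inside PVT1, and scored 375. Whether that summit stands for a peak that reaches the PVT1 start cannot be seen from summits.

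**Figure D3:**
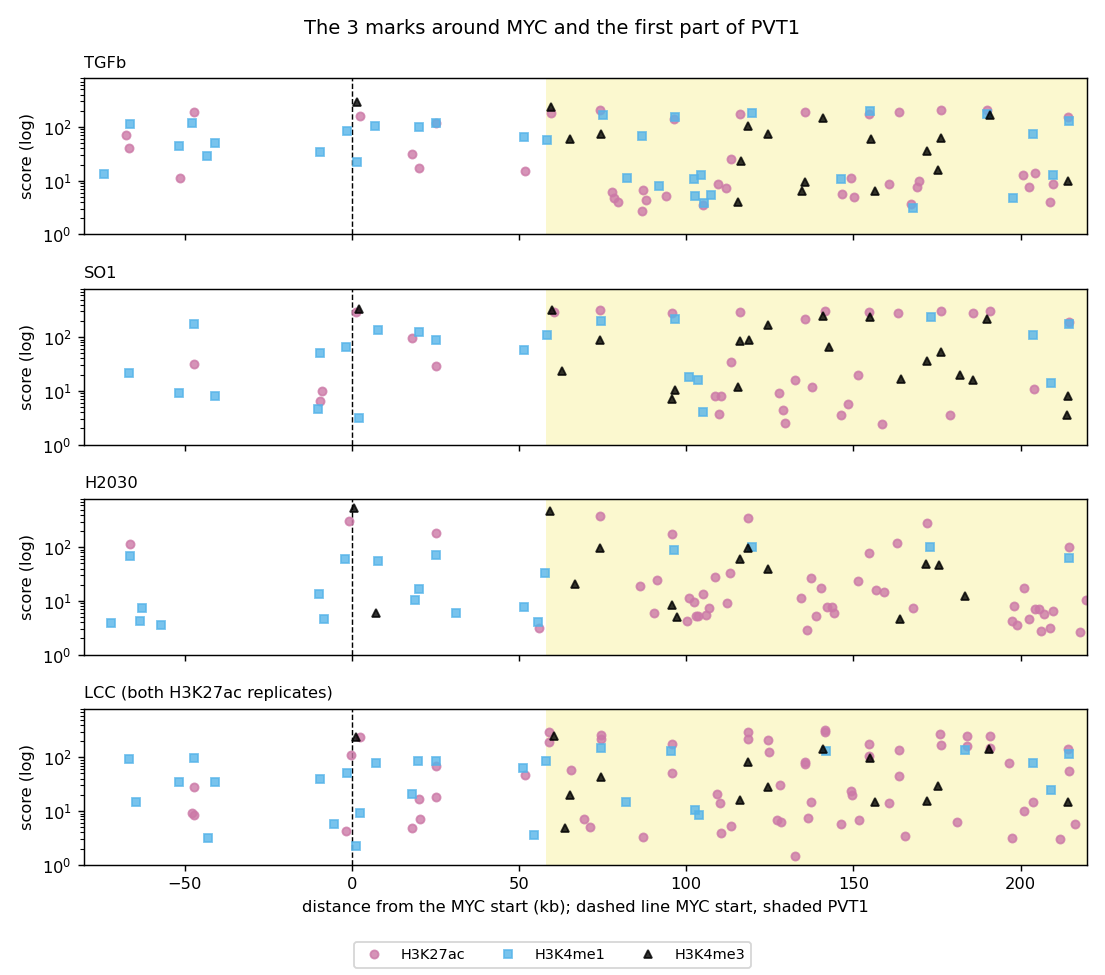
Scores (y axis, log scale) of the summits of the 3 marks from 80 kb before to 220 kb after the MYC start, 1 panel per group. Each point is 1 summit, the dashed line is the MYC start, and PVT1 is shaded. H3K4me3 stands at both gene starts in all 4 groups, while H3K27ac with scores above 100 at the PVT1 start is seen in TGFb, SO1 and LCC.

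Inside PVT1, some strong H3K27ac summits were found at the same place in every library. Merging the summits of the 5 H3K27ac libraries within 1000 bp gave 158 elements in the window, 19 of which carried a summit in every library. With either LCC replicate counted, 22 elements (13.9%) were marked in all 4 groups, a smaller share than the 20.1% over all chromosomes. Of the 19, 14 lay in PVT1, which held 99 of all 158 elements, and 15 had a score of at least 100 in some library. One was an element 74.3 kb after the MYC start, at 8:128822312-128822380, which scored 204 in TGFb, 314 in SO1, 375 in H2030, and 220 and 260 in the LCC replicates. It carried H3K4me3 as well, with 72.5, 89.0 and 97.2 in TGFb, SO1 and H2030, and 42.9 in LCC. Another lay 234.2 kb after the MYC start, at 8:128982087-128982270. It scored 202 in TGFb, 262 in SO1, 227 in H2030, and 157 and 295 in the LCC replicates. No H3K4me3 summit of any group was within it, and H3K4me1 there ranked 37 in TGFb, 9 in SO1, 255 in H2030 and 251 in LCC, among the strongest of each list.

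The strongest H3K27ac summits of the libraries fell on few places. TGFb had its 3 strongest at 190.1, 74.3 and 176.1 kb after the MYC start, with 206, 204 and 204, and SO1 at 74.3, 141.6 and 190.9 kb, with 314, 309 and 303. H2030 had them at 441.9, 74.3 and 118.4 kb, with 413, 375 and 349. LCC replicate 1 had them at 432.5, 383.3 and 141.6 kb, with 305, 301 and 291, and replicate 2 at 141.6, 383.3 and 118.4 kb, with 317, 314 and 297. The place at 74.3 kb was thus among the first 3 in TGFb, SO1 and H2030, and that at 141.6 kb in SO1 and both LCC replicates.

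At the other end of the scale, 75 of the 158 elements were marked in a single library, and their median score was 7.07. H2030 alone accounted for 45 of them, of which 13 had a score of at least 10. These were 28.5% of all elements in the window, against 17.3% over all chromosomes. TGFb alone had 12 (7.59%, against 9.23%) and SO1 alone 5 (3.16%, against 5.97%), while LCC replicates 1 and 2 alone had 8 and 5. Summits beside H3K4me3 had the highest scores. In H2030, 57 of the 87 PVT1 summits had neither H3K4me1 nor H3K4me3 within 1 kb, with a median score of 7.07, whereas the 5 with H3K4me3 had a median of 278. The 25 with H3K4me1 alone were about as weak as those with neither, with a median of 8.80, and so were the 22 in TGFb, with 9.29 against 6.67 for neither. In LCC replicate 2, 24 of 50 lacked both, with a median of 5.82, against 59.4 for the 16 with H3K4me1 alone and 239 for the 10 with H3K4me3. Over the whole window, neither mark stood beside 41.4% of H3K27ac summits in TGFb (exact 95% interval 30.9 to 52.5), 33.8% in SO1 (22.6 to 46.6), and 53.3% in H2030 (44.0 to 62.5). The LCC replicates had 26.3% (15.5 to 39.7) and 33.8% (23.2 to 45.7). Over all chromosomes the shares were 11.9% in TGFb, 9.53% in SO1, 18.8% in H2030, and 12.6% and 14.8% in LCC, below the window's interval in each library. These intervals, and those below, cover counting error only. A summit counted with neither has no H3K4 summit within 1 kb, which does not show that H3K4 methylation is missing. The SO1 stretch from 108.6 to 163.4 kb after the MYC start held 18 H3K27ac and 0 H3K4me1 summits of SO1. The SO1 H3K4me1 summit at 173.2 kb ranked 2 of its list, and how far its peak reaches cannot be seen.

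**Figure D4:**
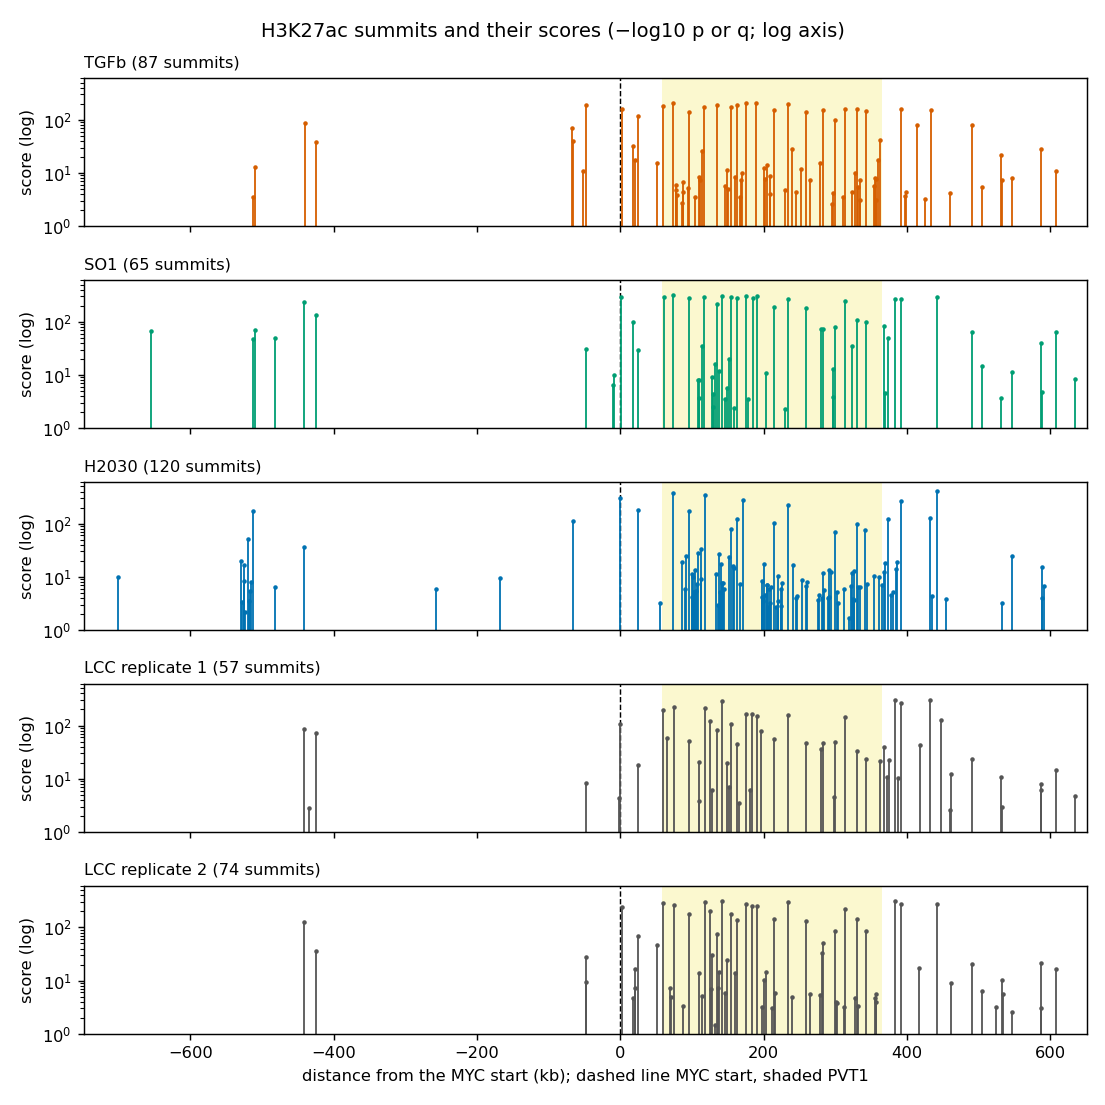
Every H3K27ac summit of the window by its distance from the MYC start (x axis, kb) and its score (y axis, log scale), 1 panel per library. A row of tall summits across PVT1 is shared by the libraries, short summits fill the space between them most densely in H2030, and the group of H2030 summits about 500 kb before MYC has no counterpart in either LCC replicate.

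Joining H3K27ac summits at gaps of little more than 12 kb or less showed where the mark was densest. In H2030, 35 summits joined over 115 kb, from 276.6 to 391.9 kb after the MYC start, which ranked 14 among the regions of that list by number of summits. A further 25 joined over 62.8 kb (rank 31), from 197.5 to 260.3 kb. The longest regions were 20 summits over 83.4 kb in TGFb (rank 34, from 278.9 to 362.3 kb) and 18 over 54.8 kb in SO1 (rank 12, from 108.6 to 163.4 kb). In LCC replicate 1 there were 17 over 87.1 kb (rank 14, from 109.3 to 196.4 kb), and in replicate 2 there were 16 over 53.2 kb (rank 60, from 110.2 to 163.5 kb). The replicate 1 region held 16 summits in TGFb, 21 in SO1, 18 in H2030 and 19 in replicate 2, so it was well filled in every library. The other regions of at least 5 summits numbered 4 in TGFb, 1 in SO1, 3 in H2030, and 1 and 3 in the LCC replicates. They spanned 14.3 to 44.1 kb and, with 1 exception in H2030 described below, lay between 51.8 and 391.8 kb after the MYC start. Joining within 5 kb left no such region in LCC replicate 1 and 1 in replicate 2.

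H3K4me1 was strong along this domain. Of its window summits, 23 of 115 in TGFb, 18 of 98 in SO1, 11 of 117 in H2030 and 16 of 119 in LCC were among the first 1% of their list. PVT1 held 12 of these in TGFb, 11 in SO1, 5 in H2030 and 10 in LCC. The strongest lay 155.1 kb after the MYC start in TGFb, ranked 2 of 143843 with a score of 195, and 173.2 kb after it in SO1, ranked 2 of 128146 with 240. The strongest in H2030 lay beyond PVT1, 440.5 kb after the MYC start, with a rank of 94 of 133086 and a score of 109. In LCC the strongest lay at 74.4 kb, with a rank of 69 of 142640 and a score of 147. None of the H3K4me3 summits of the window was among the first 10% of its list in any of the 4 libraries. For H3K27ac the first 1% held 0 window summits in TGFb, 0 in SO1, 1 in H2030, and 7 and 5 in the LCC replicates. The first 10% held 0 in TGFb, 17 in SO1, 7 in H2030, and 19 and 21 in the LCC replicates. Ranks in lists of different lengths do not show a change.

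Beyond PVT1, a pair of H3K4me1 elements stood out in all 4 groups, 440.5 and 442.0 kb after the MYC start, at 8:129188436-129188489 and 8:129189897-129190032. The first scored 169 in TGFb, 204 in SO1, 109 in H2030 and 121 in LCC, and the second 140, 200 and 108 in TGFb, SO1 and H2030, and 114 in LCC. H3K27ac at 8:129189696-129189919 scored 292 in SO1, 413 in H2030 and 278 in LCC replicate 2, which made it the strongest H3K27ac summit of the window in H2030. TGFb had no summit there, but scored 154 at 8:129181849, and LCC replicate 1 scored 305 at 8:129180463, its highest of the window (rank 32). The libraries thus placed their strongest summit of this stretch at different points, up to about 10 kb apart, and the LCC replicates differed in this as well. Some had further summits there: H2030 scored 128 at 8:129180414, and LCC replicate 1 scored 126 at 8:129195226. Nearer to PVT1, an element at 8:129131287-129131316 scored 272 for H3K27ac in SO1, and 301 and 314 in the LCC replicates. H3K4me3 was also present there, with 263 in TGFb, 373 in SO1 and 265 in LCC, as at a promoter. TGFb had no H3K27ac summit there, the nearest being 8138 bp away. H2030 had no summit of either mark there: its nearest H3K4me3 summit lay 57425 bp away, and its nearest H3K27ac summit, 1556 bp away, scored 13.9. The next H3K27ac element, 391.7 kb after the MYC start, was marked in every library, with 160 in TGFb, 271 in SO1, 262 in H2030, and 268 and 281 in LCC.

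Far upstream of MYC, H2030 carried a group of 10 H3K27ac summits over 16.6 kb, from 529.1 to 512.5 kb before the MYC start. It was the densest of the H2030 regions, with 60.3 summits per 100 kb. TGFb and SO1 each had 1 summit there, and both LCC replicates had 0. The strongest element, at 8:128235104-128235467, scored 171 in H2030, 47.3 in SO1 and 3.53 in TGFb, and the nearest LCC summits lay 71278 and 71215 bp away. H3K4me1 stood at that element in H2030 (54.6) and LCC (22.8). H2030 had 4 H3K4me1 summits in the region and LCC had 2, so the region was not bare in LCC. A neighbouring element at 8:128237746-128237765 was marked in SO1 (69.0) and TGFb (12.9) but not in H2030, and carried H3K4me1 in TGFb (52.0), SO1 (105) and LCC (21.8).

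The comparison of TGFb with LCC addresses what TGF-β1 changes at this locus. Elements were called new when TGFb had a summit and no LCC library did, and lost when every LCC library had one and TGFb did not, and likewise for the other groups. Of the 74 TGFb H3K27ac elements, 25 or 33.8% were new (exact 95% interval 23.2 to 45.7), where 27.7% were new over all chromosomes. Of the 37 elements of both LCC replicates, 9 or 24.3% were lost (11.8 to 41.2), against 10.3% over all chromosomes. The lost share's interval lay above its background. The same held between the LCC libraries: set against replicate 1, replicate 2 had 27 of 64 elements new (42.2%) and 16 of 53 lost (30.2%, 18.3 to 44.3), beside 32.2% and 14.4% over all chromosomes. Those are comparisons of 1 library with 1 library. Against replicate 1 alone, the shortest of the H3K27ac lists, TGFb had 60.0% new (48.0 to 71.1) and 43.4% lost (29.8 to 57.7), beside 43.3% and 19.1% over all chromosomes. Against replicate 2 alone it had 36.0% new (25.2 to 47.9) and 26.2% lost (16.03 to 38.5), beside 31.4% and 22.7%. The window thus stood above its background against replicate 1, as replicate 2 did for lost elements, while against replicate 2 the intervals included the background. The shares also moved with the merging of summits, with 47.6% new at 500 bp and 22.4% at 2500 bp, and 43.2% and 11.8% lost. When no summit of the other group was allowed within 10 kb, 3 of 74 elements (4.05%) were new and 0 of 37 lost, which allows a share of up to 8.11% by the limit of 3 counts and up to 9.49% by the exact interval. Over all chromosomes 11.5% were new and 2.87% lost. The median gap between H3K27ac summits of the window was 4.93 kb in TGFb, and 8.47 and 5.95 kb in the LCC replicates. This distance can therefore call few elements outside the sparse stretch before MYC, and the low shares are not read as a result. LCC replicate 2 had 2 of 64 new and 2 of 53 lost against replicate 1 under this distance, with 13.6% and 4.36% over all chromosomes.

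Of the 9 elements lost within 1 kb, 7 lay in PVT1, which held 99 of the 158 H3K27ac elements of the window. The median of the lower LCC score over the 9 was 123. By that score the strongest was the element at 8:129131287-129131316 described above, beyond PVT1, with 301 and 314 in LCC. The strongest in PVT1, at 8:128889561-128890033, scored 309 in SO1, 7.79 in H2030, and 291 and 317 in LCC. The TGFb summit nearest to it lay 4472 bp away. At 8:128866369-128866446, H2030 scored 349 and the LCC replicates 215 and 297, with the nearest summits 2140 bp away in TGFb and 2134 bp away in SO1. Each had a TGFb summit within 10 kb, and moved summits and lost peaks cannot be told apart from these lists.

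The 3 new elements of TGFb under the 10 kb distance all lay before MYC, where each LCC replicate had only 4 H3K27ac summits. The strongest, at 8:128680588-128681639, 66.9 kb before the MYC start, scored 71.7 in TGFb and 114 in H2030. The nearest LCC H3K27ac summits were 19271 and 18696 bp away and the nearest SO1 summit 19210 bp away. H3K4me1 was present there in every group, with 115 in TGFb, 21.1 in SO1, 67.4 in H2030 and 91.3 in LCC. The element 47.4 kb before the MYC start, at 8:128700335-128700910, was among the strong TGFb elements with 193, and scored 31.3 in SO1, and 8.48 and 27.6 in the LCC replicates. It had no H2030 summit. The others were the pair near 510 kb before MYC named above. For H3K4me3, 1 of 24 TGFb elements was new (4.17%, 0.105 to 21.1) and 1 of 24 LCC elements lost, beside 15% and 6.55% over all chromosomes. For H3K4me1, 25 of 109 were new (22.9%) and 23 of 107 lost (21.5%), near the 23.8% and 23.6% over all chromosomes.

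SO1 and LCC share the H2087-LCC name, and the labels do not state what the comparison was made for. In SO1, 13 of 57 H3K27ac elements were new (22.8%, 12.7 to 35.8), against 24.8% over all chromosomes, and 6 of 37 LCC elements were lost (16.2%, 6.19 to 32.0), against 17.4%. Both shares were near the background. Against replicate 1 alone SO1 had 37.9% new and 32.1% lost, beside 38.1% and 25.6% over all chromosomes. Against replicate 2 alone it had 31.6% new and 40.0% lost, beside 28.7% and 32.2%. Under the 10 kb distance 4 of 57 were new (7.02%, against 12.3% over all chromosomes) and 2 of 37 lost (5.41%, against 7.41%). The median gap between SO1 H3K27ac summits of the window was 9.95 kb, so density limits these calls as well. All 4 new elements lay before MYC, where each LCC replicate had only 4 summits. Besides the pair near 510 kb, they were 8:128092939, which scored 66.4 with SO1 H3K4me1 of 93.0, and 8:128265923-128266324, which scored 48.6 with SO1 H3K4me1 of 59.0. LCC had no H3K4me1 within 38337 and 28422 bp of these. The 2 lost elements lay beyond PVT1. At 8:129165639-129165707 the LCC replicates scored 42.3 and 17.0 and SO1 kept H3K4me1 with 51.7, against 91.0 in LCC. At 8:129208650-129209762 they scored 12.1 and 9.06, and SO1 kept H3K4me1 with 25.5, against 20.8 in LCC. H3K4me1 was new at 19 of 92 elements (20.7%, background 26.8%) and lost at 34 of 107 (31.8%, background 32.7%). H3K4me3 was new at 7 of 27 (25.9%, background 19.3%) and lost at 4 of 24 (16.7%, background 11.3%).

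H2030 against LCC is a comparison of unrelated lines. Of the 98 H2030 H3K27ac elements, 58 were new (59.2%, 48.8 to 69.0), against 47.1% over all chromosomes, and of the 37 LCC elements 14 were lost (37.8%, 22.5 to 55.2), against 45.3%. The interval of the new share lay above the background. LCC replicate 2 against replicate 1 also had a new share above its background, 42.2% against 32.2%, with an interval (29.9 to 55.2) that included it. Against replicate 1 alone H2030 had 72.3% new (62.5 to 80.7) and 47.2% lost, beside 55.5% and 50.9% over all chromosomes. Against replicate 2 alone it had 65.3% new (55.02 to 74.6) and 47.7% lost, beside 49.9% and 56.3%. New elements numbered 20 with a score of at least 10, and the median of all 58 was 7.56. The new share was 74.2% when summits were merged within 500 bp and 34.1% within 2500 bp. With scores of at least 10 it was 54.0% of 50 elements. Shares over all chromosomes were not computed at these settings, so whether the window stands above them there was not tested. Under the 10 kb distance 13 of 98 were new (13.3%, 7.26 to 21.6), and 6 of 37 lost (16.2%), both below the 23.6% and 29.3% over all chromosomes. All 13 new elements lay before MYC, where each LCC replicate had only 4 summits. In the rest of the window LCC was marked so densely that no H2030 element was more than 10 kb from an LCC summit. Calls of lost elements were limited likewise, since H2030 H3K27ac summits of the window had a median gap of 2.67 kb. The strongest new elements were the one of score 171 in the far upstream group and the one 66.9 kb before the MYC start. They were followed by 8:128227949 (score 51.4), 8:128218895 (19.9) and 8:128222435-128223953 (16.6) in the far upstream group. LCC carried H3K4me1 within 1 kb at the first 2 of these 3 (43.2 and 32.4).

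Of the H3K27ac elements lost in H2030 within 1 kb, the strongest was 8:129131287-129131316, described above, with LCC scores of 301 and 314. Under the 10 kb distance, the strongest was an element in PVT1, at 8:128931955-128931962, with LCC scores of 165 and 251. It had no summit of TGFb or SO1 either, but these lay 6185 and 1792 bp away, against 12052 bp in H2030. H3K4me1 of LCC scored 137 there, and H2030 had an H3K4me3 summit 631 bp away, with a score of 12.2. The next, at 8:128324010-128324057, 424 kb before the MYC start, scored 37.7 in TGFb, 133 in SO1, and 71.0 and 35.4 in LCC. The remaining named losses were 8:129238974-129239050 (LCC scores 23.1 and 20.4), 8:129165639-129165707 (42.3 and 17.0) and 8:129356052-129356156 (14.4 and 16.5). The nearest H2030 H3K27ac summit lay 36204, 14707 and 16936 bp from these. H3K4me1 of H2030 was new at 55 of 108 elements (50.9%, background 48.8%) and lost at 54 of 107 (50.5%, background 52.9%).

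Lost H3K4me3 elements were more frequent in H2030 in the window than over all chromosomes. Of the 24 LCC elements with this mark, 15 or 62.5% (40.6 to 81.2) had no H2030 summit, against 32.2% over all chromosomes, and 8 of the 17 H2030 elements were new (47.1%, 22.98 to 72.2), against 31.3%. The lost share's interval lay above the background, while that of the new share did not. H3K4me3 has no replicate, so the error of this share between libraries is unknown. The LCC H3K4me3 summits of the window had a median score of 27.8, against 189 in the whole list. The background was not matched for score, so whether the window differs from other sites of like score was not tested. The lost share stayed between 57.1% and 68.0% under the other merging distances, the score threshold, equal list lengths and the shorter window. The share over all chromosomes was not computed at these settings, so the difference from it was not tested there. The lost sites included the strongest H3K4me3 site of the window in the H2087 cells, at 8:128323982-128324010, which scored 292 in TGFb, 377 in SO1 and 278 in LCC. The nearest H2030 summit lay 4020 bp away and scored 17.1. In PVT1 the lost sites included 8:128888892-128888909 (148 in TGFb, 251 in SO1, 145 in LCC) and 8:128903126-128903266 (59.0, 234 and 97.8). A further one was 8:128938132-128938854 (165 in TGFb, 219 in SO1, 145 in LCC), where H2030 had its nearest H3K4me3 summit 6808 bp away. Beyond PVT1 they included the site near 383 kb described above and 8:129356137-129356183, with 40.4 in TGFb, 275 in SO1 and 93.3 in LCC, 167110 bp from the nearest H2030 summit. In all 4 groups, 9 of the 38 H3K4me3 elements were marked (23.7%), against 41.3% over all chromosomes, again not matched for score. These were the MYC start, the PVT1 start, 6 further sites in PVT1 between 74.3 and 175.7 kb after the MYC start, and 1 site 441.2 kb before it, with 30.7 in TGFb, 74.2 in SO1, 6.60 in H2030 and 35.8 in LCC. Apart from the 2 gene starts, H2030 had no H3K4me3 score above 97.2 in the window.

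**Figure D5:**
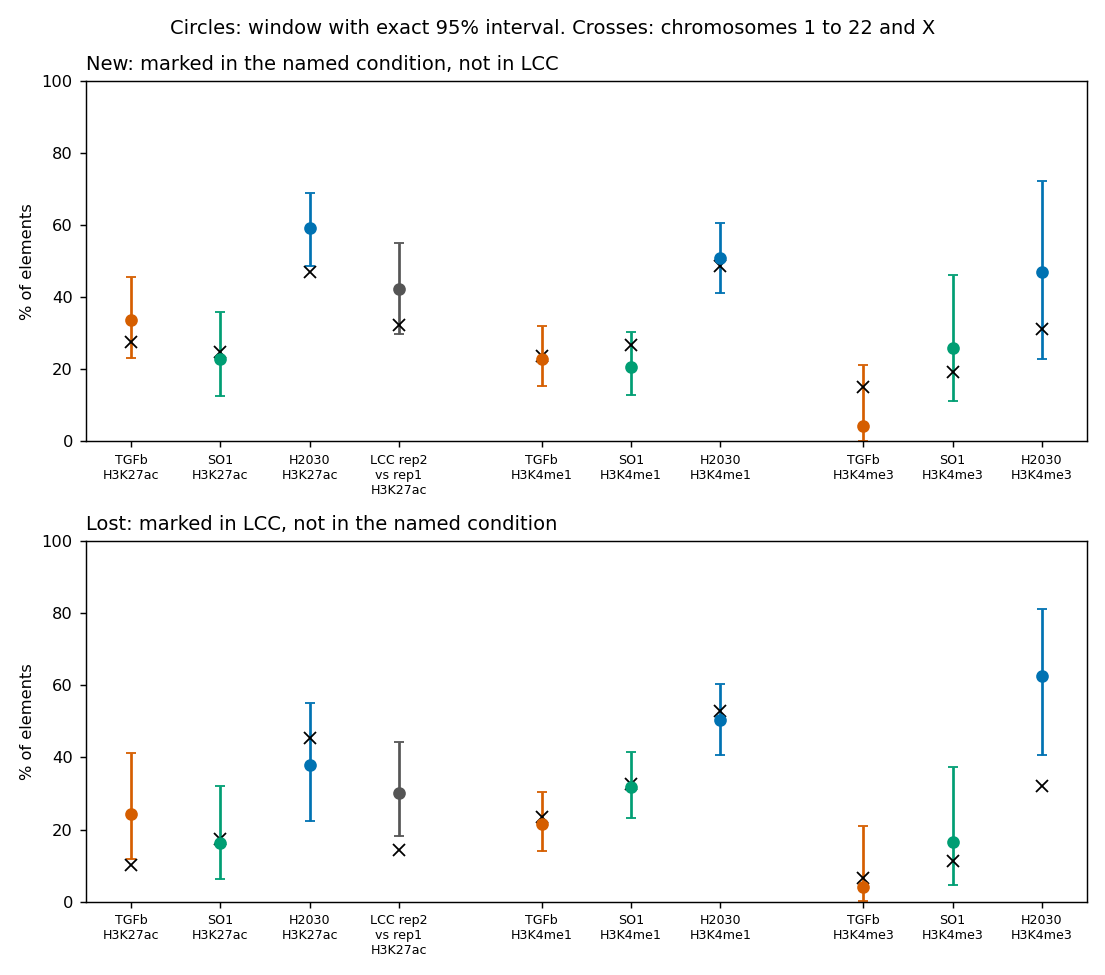
Share of elements that were new (top) or lost (bottom) against LCC, in percent (y axis), for each group and mark (x axis), with exact 95% intervals that cover counting error only. Circles are the window and crosses all chromosomes. For H3K27ac the comparison of LCC replicate 2 with replicate 1 is shown beside the groups, and H3K4me3 lost in H2030 is the share that stands farthest from its cross, 62.5% against 32.2%.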

How the data were processed

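Reads were handled with SAMtools, Bowtie2 and deepTools on hg19, per the submitters' processing notes, and no source names the peak caller. The deposited files list 1 bp summits with the authors' score, here taken for −log10 p-values or q-values because the smallest, 1.30107, is just over the −log10 of 0.05 (1.30103). Peaks were called per library, as the peak names in the deposited files show. Depth is unknown, and the 5 input samples were not used.

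Groups come from sample titles. Positions are 1-based hg19 coordinates. The window and gene positions were given to the nearest kb. Backgrounds use chromosomes 1 to 22 and X, leaving out 29 to 238 summits per library. Summits of a mark were merged within 1000 bp into elements, and marks were paired within 1 kb. Shares have exact binomial 95% intervals. No test was run. The calls were tested on simulated data in which changes were planted only at summits far from any other. That does not test them in a stretch as dense as this window. The members, lists and rules were chosen with earlier results of these data known. Elements named are the 5 highest-scoring new and lost per comparison under the 10 kb rule, the strongest summits of each library, dense regions, and H3K4me3 elements of at least 2 groups. Other elements named, and the comparisons with single LCC replicates, were chosen after their values were seen. Python 3.11.15, numpy 2.4.6, pandas 2.3.3, scipy 1.17.1 and matplotlib 3.10.9 were used.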

Additional observations from a re-analysis of the deposited data

How the results depend on the processing

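Shares of new or lost elements moved with the merging distance and with the LCC replicates used. At 500 bp the H3K27ac shares were 47.6% new and 43.2% lost in TGFb, and 74.2% new and 56.8% lost in H2030. For H3K4me1 they were 33.6% lost in TGFb, 30.9% new and 42.2% lost in SO1, and 65.2% new and 65.5% lost in H2030. At 2500 bp the H3K27ac shares were 22.4% new and 11.8% lost in TGFb, 11.6% new in SO1 and 34.1% new in H2030. For H3K4me1 they were 21.7% lost in SO1, and 33.8% new and 38.6% lost in H2030, and for H3K4me3 0% lost in TGFb. A shorter distance splits elements by construction. The other 15 of 24 shares at 500 bp and 16 of 24 at 2500 bp moved less than their counting intervals, as did all 24 with equal list lengths and in a window shortened by 100 kb on each side.

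Leaving out 1 LCC replicate makes a call rest on a single library. Under the 1 kb rule the H3K27ac shares then ranged from 36.0% to 60.0% new and 26.2% to 43.4% lost in TGFb, 31.6% to 37.9% new and 32.1% to 40.0% lost in SO1, and 65.3% to 72.3% new and 47.2% to 47.7% lost in H2030. Under the 10 kb rule they ranged from 4% to 8% new and 0% to 5.66% lost in TGFb, 10.3% to 14.04% new and 3.77% to 4.62% lost in SO1, and 14.9% to 15.3% new and 10.8% to 13.2% lost in H2030.

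With scores of at least 10, H3K27ac summits in the window numbered 46 in TGFb, 50 in H2030 and 43 in LCC replicate 2, and H3K4me1 summits 58 in H2030 and 78 in LCC. In PVT1, an alternative added after seeing the data, H3K27ac summits then numbered 27 in TGFb, 34 in H2030 and 28 in LCC replicate 2. Joining summits within 5 kb gave 9 dense regions in H2030, 0 in LCC replicate 1 and 1 in replicate 2. No paired analysis was possible because only the LCC H3K27ac and input samples carry replicate numbers. Depth is unknown, so a missing summit may be a weak peak.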

Other observations

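The 1400 kb before and after the window held far fewer summits than the window in each library. H3K27ac had 29 and 16 summits there in TGFb, 26 and 15 in SO1, 18 and 18 in H2030, and 22 and 10 and 23 and 11 in the LCC replicates. H3K4me1 had 62 and 35 in TGFb, 44 and 35 in SO1, 53 and 34 in H2030, and 53 and 38 in LCC. H3K4me3 had 9 and 6 in TGFb, 7 and 8 in SO1, 6 and 2 in H2030, and 6 and 6 in LCC.

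Several combinations of groups that include H2030 held a larger share of the 158 H3K27ac elements of the window than over all chromosomes. H2030 with TGFb only held 8 (5.06%, against 1.93%), H2030 with SO1 only 3 (1.90%, against 1.12%), and H2030 with LCC only 5 (3.16%, against 1.45%). H2030 with TGFb and LCC held 7 (4.43%, against 2.09%), and H2030 with SO1 and LCC 6 (3.80%, against 0.918%). H2030 with TGFb and SO1 held 2 (1.27%, against 1.498%), and all 4 groups together held 22 (13.9%, against 20.1%). These differences were not tested.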
